A study of Homo sapiens with 2 samples.

Results

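Mirtrons are microRNA (miRNA) hairpins that are also whole short introns. In the canonical pathway the Microprocessor, which holds the nuclease Drosha, cuts a hairpin out of a longer transcript. A mirtron is instead cut out by the spliceosome, its lariat is opened, and the folded intron passes to Dicer, which trims it to a duplex of a 5p and a 3p arm. One arm of a duplex is usually kept by an Argonaute protein and the other is degraded. Of the hairpins described here, those in PKD1 and LRP1 have also been reported to form without splicing.

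The 10 hairpins were taken by name from the deposited table, as the rows whose precursor is hsa-mir-877, hsa-mir-1224, hsa-mir-1225, hsa-mir-1226, hsa-mir-1227, hsa-mir-1228, hsa-mir-1229, hsa-mir-1236, hsa-mir-1237 or hsa-mir-1238, written below without the species prefix. They gave 20 rows, a 5p and a 3p arm for each of 10 precursors, out of 2363 rows and 1600 precursors. Every one of the 20 mature names had 1 row, so no mirtron count was repeated at another hairpin. The rule takes rows by name and uses no measured value.

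The samples were 2 small RNA libraries of hCMEC/D3, labelled replicate 2 and replicate 8. This is a single immortalised line of endothelial cells from human brain microvessels, used to model the blood-brain barrier in culture. The labels give no treatment, no genotype and no other group, and they do not say whether the libraries came from separate cultures, so the spread between them may be technical. The totals used for scaling, with 1 row per mature name, were 2721287 and 2727675 counts. The endothelial miR-126-3p stood at 109395 and 115057 CPM (counts per 1000000 of these totals), the blood miRNAs miR-223-3p and miR-142-3p had 0 counts, miR-124-3p of neurons had 3 and 1 counts, and the liver miRNA miR-122-5p had 639 and 688. At this depth 3 counts, the one-sided limit that a count of 0 allows, equal 1.10 CPM in either library. The labels mention no molecular identifiers, so intervals and limits cover counting error only.

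All 10 hairpins were chosen as mirtrons, so their annotated ends describe that choice and are not a result of these libraries. Each began with GU and ended with AG, the bases at which introns are cut, and the annotated ends of each were both ends of an intron of a protein-coding gene in GENCODE release 44 mapped to GRCh37. Among the other precursors of the table, 11 of 1235 with a RefSeq hairpin began with GU and ended with AG (0.891%), and 5 of 1024 with a position had both ends at intron ends (0.488%). The 4 hairpins with an arm detected below are shown because their ends carry the splice sites. They are RefSeq sequences (GRCh38.p14), 5′ to 3′, with the GU and AG at the intron ends in capitals, and all 10 were identical to the GRCh37 genome at the positions given.
mir-877: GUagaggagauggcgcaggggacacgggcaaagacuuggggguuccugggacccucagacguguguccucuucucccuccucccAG
mir-1226: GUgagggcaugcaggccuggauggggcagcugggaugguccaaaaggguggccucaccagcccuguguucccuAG
mir-1229: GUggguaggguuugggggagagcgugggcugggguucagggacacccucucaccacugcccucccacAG
mir-1224: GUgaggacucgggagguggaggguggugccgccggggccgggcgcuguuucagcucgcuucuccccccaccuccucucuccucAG

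The detected hairpins lay in 4 genes. On GRCh37, mir-877 is at chr6:30552109-30552194 (plus strand), intron 13 of 24 in the canonical transcript of ABCF1, an ATP-binding protein of translation initiation. The mir-1226 hairpin is at chr3:47891045-47891119 (plus), intron 20 of 21 of the RNA helicase gene DHX30. For mir-1229 the position is chr5:179225278-179225346 (minus), intron 13 of 14 of MGAT4B, which branches N-glycans. The mir-1224 hairpin fills intron 19 of 19 of VWA5B2 at chr3:183959193-183959277 (plus).

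The remaining hairpins fill introns of 6 further genes. They are mir-1236 in intron 3 of 10 of NELFE, a subunit of the negative elongation factor, mir-1227 in intron 4 of 5 of PLEKHJ1, and mir-1228 in intron 49 of 88 of LRP1, a receptor known for carrying ligands across the blood-brain barrier. They also include mir-1237 in intron 11 of 16 of the kinase gene RPS6KA4, mir-1238 in intron 8 of 9 of the autophagy protease gene ATG4D, and mir-1225 in intron 45 of 45 of PKD1, which encodes polycystin. The host mRNAs were not analysed here.

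The mature arms of the 4 hairpins follow, with the seed (bases 2 to 8, the part that pairs with targets) in capitals, to show that the 5p arms open at the 5′ splice site and the 3p arms close at the 3′ splice site.
miR-877-5p: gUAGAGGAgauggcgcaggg
miR-877-3p: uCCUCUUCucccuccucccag
miR-1226-5p: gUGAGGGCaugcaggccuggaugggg
miR-1226-3p: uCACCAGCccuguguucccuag
miR-1229-5p: gUGGGUAGgguuugggggagagcg
miR-1229-3p: cUCUCACCacugcccucccacag
miR-1224-5p: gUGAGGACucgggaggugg
miR-1224-3p: cCCCACCUccucucuccucag

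Over all 10 hairpins, 8 of 10 5p arms began at the first base of the RefSeq hairpin, here the intron, and 8 of 10 3p arms ended at its last base. Among other RefSeq hairpins, 22 of 472 5p arms (4.66%) and 36 of 471 3p arms (7.64%) did so. The mirtron entries are whole introns and the ends of other entries need not be splice sites. The contrast thus describes how entries are drawn, and no read enters it. The exceptions among the 5p arms were miR-1236-5p, which begins at base 2, and miR-1237-5p, which begins at base 50, in the middle of its 102-base intron. Among the 3p arms, miR-1228-3p and miR-1238-3p stop 2 bases before the intron end, so they lack the AG.

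The arms also differed from other miRNAs in base composition. The 5p arms were rich in G (median 58.5%, range 47.8 to 66.7, against a median of 27.3% in other 5p arms), and the 3p arms, which cover the pyrimidine tract before the 3′ splice site, were rich in C and U (median 80.5%, range 63.6 to 90.5, against 54.5%). Hairpin GC content ranged from 54.9% in mir-1236 to 77.5% in mir-1237, with a median of 69.0% against 50% in other hairpins. Arm length ran from 17 bases in miR-1227-5p to 26 in miR-1226-5p.

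**Figure D1:**
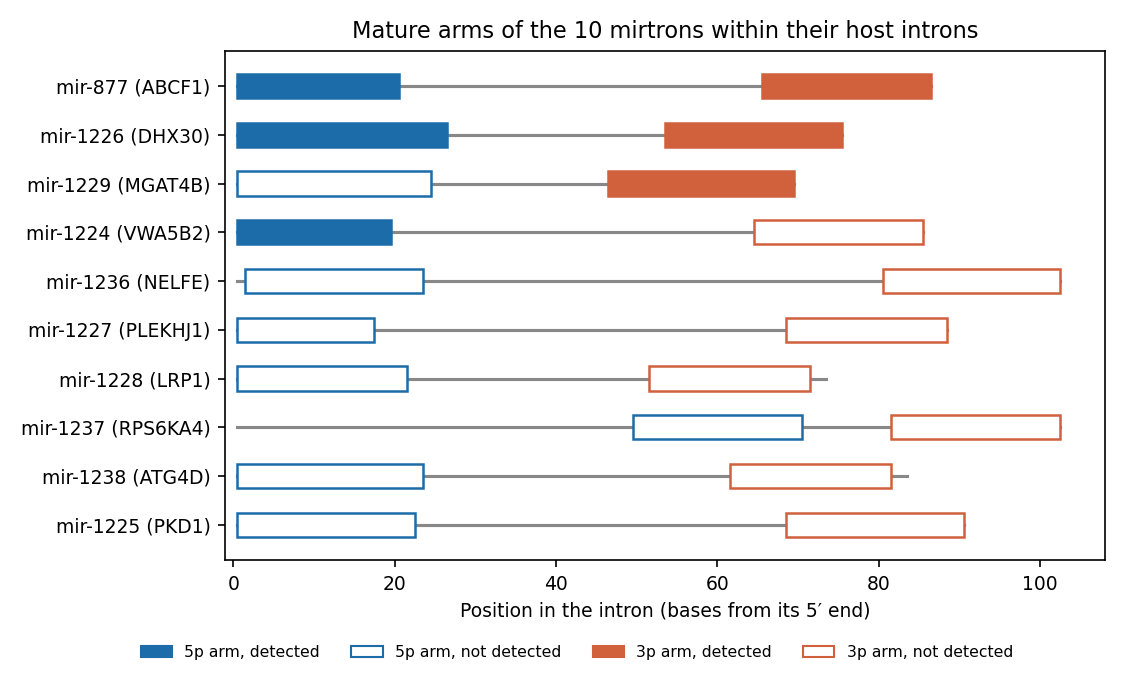
The 10 host introns drawn to scale (x axis, bases from the 5′ end of the intron), ordered by level from top to bottom, with each 5p arm in blue and each 3p arm in orange, filled where the arm had at least 10 counts in both libraries. In 8 introns the 5p arm starts at the first base, and the 6 filled arms lie in the upper 4 introns.

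No 2 of the 20 arms had the same seed. Some were close: miR-1225-5p and miR-1229-5p both begin with the 7 bases GUGGGUA, and miR-877-3p and miR-1236-3p share the 7 bases CCUCUUC, at bases 2 to 8 of the former and from base 1 of the latter. None of the 6 detected arms shared its seed with another matched name of the table (1716 of 2042 mature names were matched to RefSeq). The 2 arms that did, named after their values were seen, are shown with their partners because the mirtron arm had 0 counts in both libraries and the partner did not.
miR-1237-5p: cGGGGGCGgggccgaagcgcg
miR-4488: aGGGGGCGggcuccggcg
miR-1238-5p: gUGAGUGGgagccccagugugug
miR-4758-5p: gUGAGUGGgagccgguggggcug

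The partner miR-4488 was read 19 times in replicate 2 and 35 times in replicate 8, and miR-4758-5p had 27 and 30. Reads were thus counted for these 2 seeds, but under the partner names.

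Mirtrons were a small part of the miRNA pool of hCMEC/D3. Their 20 rows held 1485 counts in replicate 2 and 1238 in replicate 8, or 546 CPM (95% exact interval 518 to 574) and 454 CPM (429 to 480), a mean of 499.8 ± 64.9 CPM (SD, n = 2). This was 0.0546% and 0.0454% of all counts. In the deposited RPM, which divide by larger constants (3180045 and 3205752), the mean was 427. One hairpin made up most of this: mir-877 held 84.2% of the mirtron counts in replicate 2 and 80.9% in replicate 8. Without it the sum was 86.0 CPM in replicate 2 and 86.5 CPM in replicate 8, almost the same in both libraries.

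Detection was set at a minimum of 10 counts in each library. By this rule 6 of 20 mirtron arms were detected, 3 of them 5p and 3 of them 3p, against 543 of 2042 mature names (26.6%). They came from 4 of 10 hairpins, against 459 of 1600 precursors (28.7%). The count of arms was near the background. A further 8 arms had at least 1 count in a library, and 6 had 0 counts in both, against 44.5% of all mature names. Detected arms lay at both ends of the intron.

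**Figure D2:**
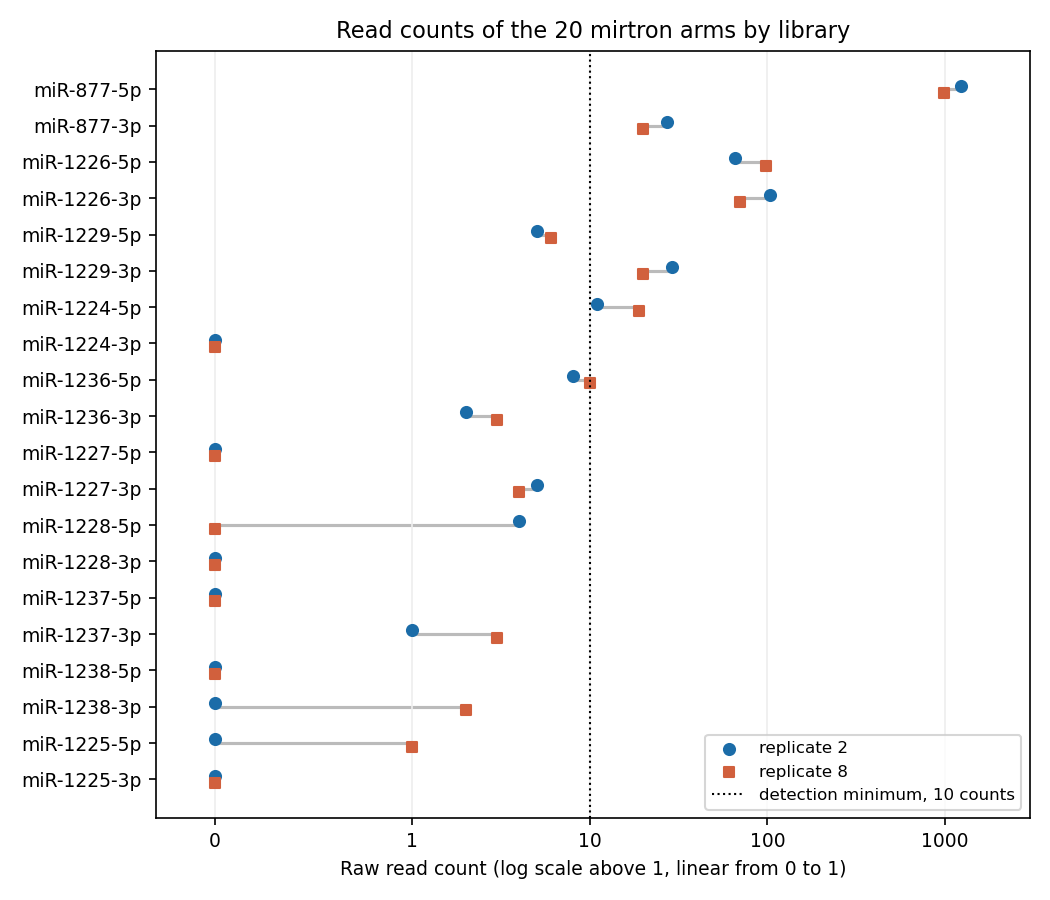
Raw read counts (x axis, logarithmic above 1 and linear from 0 to 1) of the 20 mirtron arms in replicate 2 (blue circles) and replicate 8 (orange squares), with the detection minimum of 10 counts as a dotted line. Only miR-877-5p, with 1224 and 982 counts, lies far from the rest, and 6 arms lie at 0 in both libraries.

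The most abundant mirtron was miR-877-5p, with read counts of 1224 (replicate 2) and 982 (replicate 8). This is 449.8 CPM (exact interval 425 to 476) and 360.0 CPM (338 to 383), a mean of 405 ± 63.5 CPM (SD, n = 2) and rank 128 of 2042 mature names. Its level was lower in replicate 8, and the intervals of the 2 libraries did not overlap. Its partner miR-877-3p had 27 and 20 counts, 8.63 ± 1.83 CPM.

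Both arms of mir-1226 were present at similar levels. The 5p arm had 66 counts in replicate 2 and 98 in replicate 8, 30.1 ± 8.26 CPM (SD, n = 2, rank 319). The 3p arm had 103 and 70, 31.8 ± 8.62 CPM (rank 312). The arms moved in opposite directions, so that the hairpin as a whole hardly differed, with 169 and 168 counts, 61.8 ± 0.36 CPM.

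The other 2 detected hairpins were lower and 1-sided. For mir-1229 the 3p arm carried most reads, with 29 and 20 counts (8.99 ± 2.35 CPM, SD, n = 2), while the 5p arm had 5 and 6. For mir-1224 all reads lay on the 5p arm, with 11 and 19 counts (5.50 ± 2.07 CPM). In these 2 hairpins the arm with the reads was at opposite ends of the intron.

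The arm just below the detection rule was miR-1236-5p, with 8 and 10 counts (3.30 ± 0.51 CPM, SD, n = 2), and its partner miR-1236-3p had 2 and 3. In mir-1227, the 3p arm had 5 and 4 counts (1.65 ± 0.26 CPM) and the 5p arm 0. The last 4 hairpins were at the edge of detection. In LRP1, miR-1228-5p had 4 counts in one library and 0 in the other, miR-1237-3p had 1 and 3, miR-1238-3p had 0 and 2, and miR-1225-5p, from PKD1, had 0 and 1. The other arms of these 4 hairpins, and miR-1224-3p, had 0 counts in both libraries, which allows up to 1.10 CPM.

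By the sum of both arms the order was mir-877 (414 CPM), mir-1226 (61.8), mir-1229 (11.01), mir-1224 (5.50), mir-1236 (4.22), mir-1227 (1.65), mir-1228 (0.735), mir-1237 (0.734), mir-1238 (0.367) and mir-1225 (0.183). The libraries gave non-overlapping values for mir-877, mir-1226, mir-1229 and mir-1236 against the hairpin next below each. The pair mir-1224 (4.04 and 6.97 CPM) and mir-1236 (3.67 and 4.77 CPM) overlapped, and from mir-1227 down every neighbouring pair overlapped. Adaptor ligation can capture different small RNAs unequally, so the order is one of read counts.

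Arm balance, the 5p share of the counts of both arms in a hairpin, was next compared. In mir-877 the 5p share was 97.8% in replicate 2 (95% Clopper-Pearson interval 96.9 to 98.6) and 98.0% in replicate 8 (96.9 to 98.8). In mir-1229 it was 14.7% (4.95 to 31.1) and 23.1% (8.97 to 43.6). In mir-1224 it was 100% in both, and over both libraries 30 of 30 reads were 5p, with a lower bound of 88.4%. The 3 hairpins thus differed in which arm held more reads: the 5p arm for mir-877 and mir-1224, the 3p arm for mir-1229. These are shares of reads, which unequal adaptor ligation can also shift, and binding to Argonaute was not measured. Over the hairpins with at least 20 counts in each library, the 5p arm was the larger in both in 54.6%, and over 90% of the counts lay on 1 arm in 65.8%. The less deeply covered mir-1236 leaned to the 5p arm, with 18 of 23 reads over both libraries (78.3%, 56.3 to 92.5). For mir-1227, 0 of 9 reads were 5p, which allows up to 33.6% by the same interval.

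In the DHX30 hairpin the larger arm differed between the 2 libraries. The 5p share of mir-1226 was 39.1% in replicate 2 (31.7 to 46.8) and 58.3% in replicate 8 (50.5 to 65.9), a difference of 19.3 percentage points. The intervals of the libraries did not overlap, and each lay on its own side of 50%. By Fisher's exact test (two-sided), run on each of 240 hairpins with both arms in the table and at least 20 counts in each library, the Benjamini-Hochberg adjusted p was 0.0048. The same test called 17.5% of these hairpins (9.17% with a higher and 8.33% with a lower 5p share in replicate 8), and 7.78% of the 90 with 100 to 1000 counts in all. Of the 3 mirtrons deep enough to test, mir-1226 was the one called. For mir-1229 (8.37 points) and mir-877 (0.16 points) the adjusted p was 0.88 and 1 by the same Fisher's exact test, and 26 reads in the smaller mir-1229 library leave wide intervals. The difference in mir-1226 ranked 5 among the 240, whose median was 0.79 points. Among the 90 with 100 to 1000 counts in all, as mir-1226 has, the median was 2.72 points and the largest difference 20.9. The larger arm differed between the libraries in 2.08% of the 240. An arm share is taken within each library, so library scaling does not enter it. The test compares 2 libraries of one line by their reads. The arm shares of mir-1226 were known before the test was chosen, so its p describes a difference already seen.

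**Figure D3:**
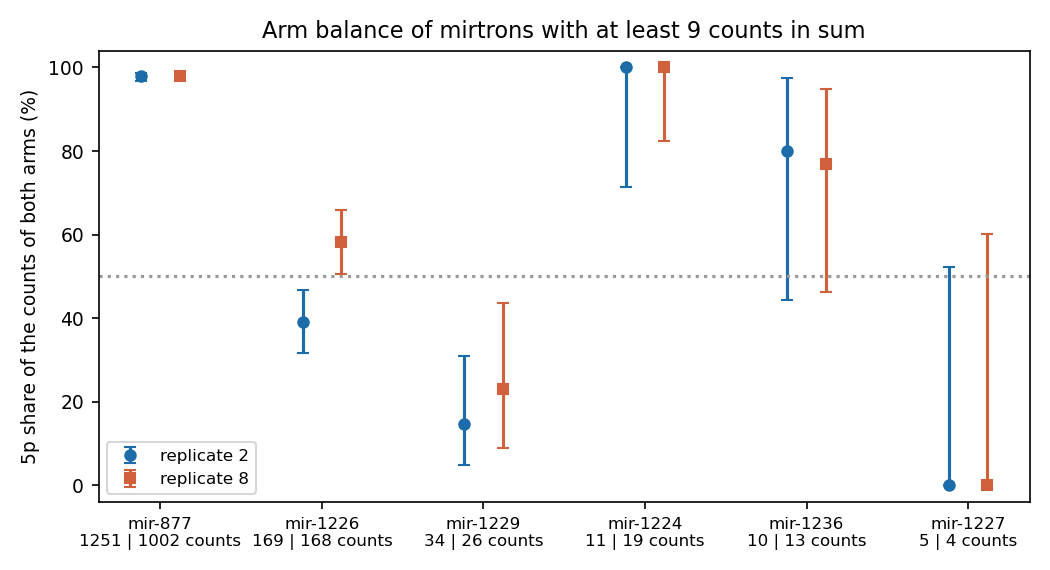
The 5p share of the counts of both arms (y axis, %) in replicate 2 (blue circles) and replicate 8 (orange squares) for the 6 mirtrons with at least 9 counts in sum, with 95% Clopper-Pearson intervals as bars and the counts of each library under the name. The intervals of mir-1226, 31.7 to 46.8 and 50.5 to 65.9, lie on either side of the 50% line.

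**Figure D4:**
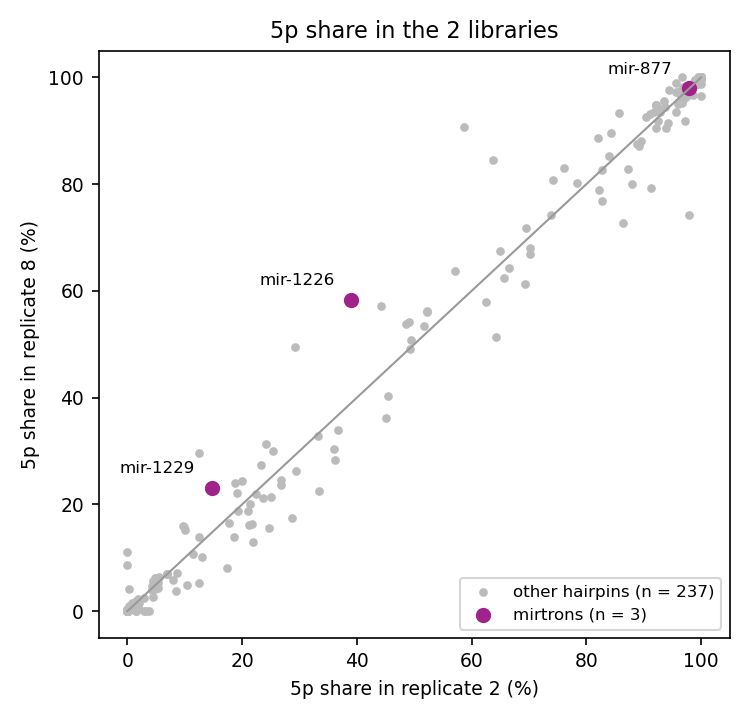
The 5p share in replicate 2 (x axis, %) against replicate 8 (y axis, %) for 240 hairpins with at least 20 counts in each library, with the 3 mirtrons in purple and the diagonal as a line of equal shares. The hairpin mir-1226 stands 19.3 points above the diagonal, while mir-877 lies on it.

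When all hairpins were summed, the 5p arms held 88.8% of the mirtron counts in replicate 2 and 90.1% in replicate 8. This was below the share of mir-877 alone (97.8% and 98.0%), although that hairpin held most of the counts. Without mir-877 the 5p share was 40.2% (33.8 to 46.8) and 56.8% (50.2 to 63.2), which follows mir-1226, the hairpin that then held most reads.

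Replicate agreement was described for the 8 mirtron arms with at least 10 counts in sum, as the log2 ratio of replicate 8 over replicate 2 after adding 0.5 counts. The median absolute log2 ratio was 0.48, against 0.33 over all 695 mature names with that many counts and 0.34 over the 267 with 40 to 500. Neither set was matched to the 8 arms in depth, which ran from 11 summed counts for miR-1229-5p to 2206 for miR-877-5p. The arms split evenly, with 4 lower and 4 higher in replicate 8. The ratios ran from -0.56 for miR-1226-3p to 0.76 for miR-1224-5p, and no mirtron arm of the 8 differed 2-fold.

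A two-sided exact binomial test asked of each mature name whether its reads were split between the libraries as all reads were. It called 3 of the 8 mirtron arms, 1 higher and 2 lower in replicate 8, against 34.2% of all 695 names (10.8% higher and 23.5% lower), a share near the background. With TMM library sizes, which raise every log2 ratio by 0.10, all names split evenly (16% higher and 16.7% lower), and 1 mirtron arm was called in each direction. For miR-877-5p the ratio was -0.32 on the log2 scale (interval -0.44 to -0.20, adjusted p = 1.5e-06 by the exact binomial test). The 5p arm of mir-1226 was higher in replicate 8, at 0.56 on the same scale (0.10 to 1.04, adjusted p = 0.045 by the exact test), and the 3p arm lower, at -0.56 (-1.02 to -0.11, adjusted p = 0.037). The call on miR-1226-3p was lost with TMM library sizes (exact binomial adjusted p = 0.108) or DESeq2 size factors (0.109), and both mir-1226 calls were lost with no filter on low counts (0.073 and 0.060). These are the same reads as those of the arm share above, so the results are not independent. For the other 5 arms the adjusted p lay between 0.36 and 1 by the same exact test, and their intervals spanned 0. With 30 counts in all, miR-1224-5p had an interval from -0.36 to 2.00, which does not exclude a 2-fold difference.

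**Figure D5:**
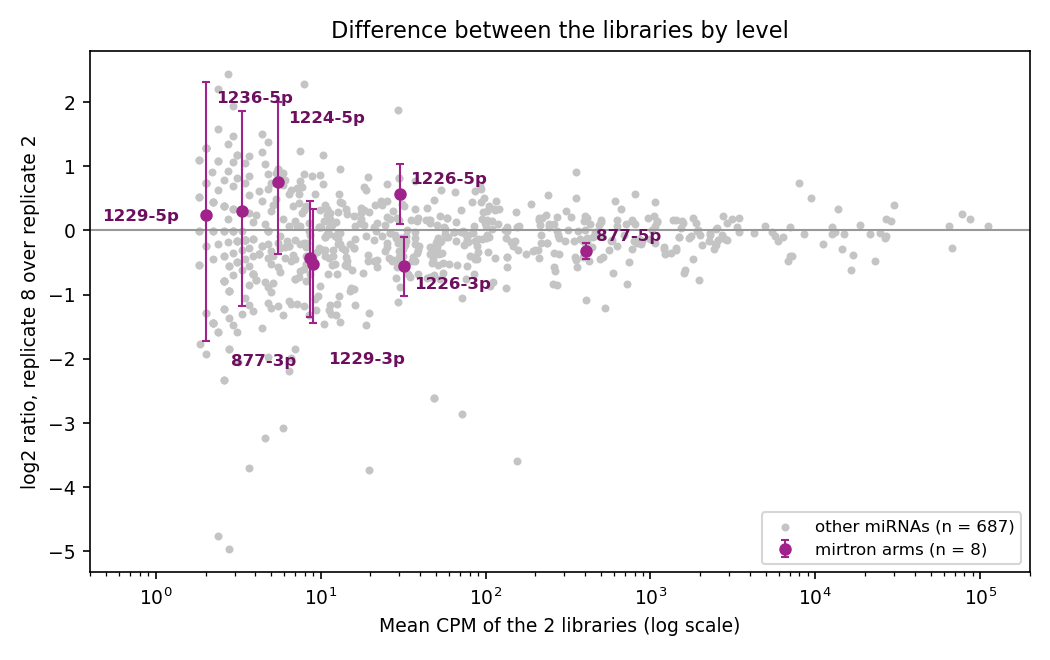
The log2 ratio of replicate 8 over replicate 2 (y axis) against mean CPM (x axis, log scale) for 695 mature names with at least 10 summed counts, with the 8 mirtron arms in purple and their 95% exact binomial intervals as bars. The intervals of miR-877-5p and of both miR-1226 arms leave out 0, and the latter lie on opposite sides of it.

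Mirtrons were set beside 2 other groups of hairpins. The first was the miR-320 family and miR-484, taken by name. Of these, mir-320a and mir-484 also bypass Drosha but are made from capped transcripts and not from introns. How the other members of the list are made was not examined. Of the 9 precursors in the list 8 were detected, with a median of 487 CPM and a highest value of 23080.5 CPM for mir-320a. The median over the 10 mirtrons was 2.94 CPM. The level of mir-484 was 349 ± 69.4 CPM (SD, n = 2), and its library values of 398 and 299.9 CPM overlapped those of mir-877 (459.7 and 367 CPM). Of 106 other precursors of the number range from 1200 up that holds 9 of the 10 mirtrons, 40 were detected (37.7%), with a median of 1.10 CPM. Over all 1600 precursors the median was 0.55 CPM. These are descriptions of lists, with no test between them. Rows of the miR-320 precursors share reads, and mir-320d-1 and mir-320d-2 carry the same counts.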

How the data were processed

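Per the labels' protocols, small RNAs within total RNA received adaptors at their 5′ and 3′ ends, and the cDNA was PCR-amplified and size-selected on gel cassettes. The authors deposited 1 table of raw read counts, per the file headers, with RPM values beside them, which are the counts over 1 constant per library. The submitters' processing notes name CASAVA 1.9, FastQC, cutadapt, Bowtie 0.12.7 and the build hg19. The counter and the miRBase release are not given in the sources used here.

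Where a mature name had several rows, the one with the most reads entered the library total, on which CPM were computed. With 1 group no contrast between conditions exists, and no edgeR model was fitted. Replicates were set against each other by exact binomial and Fisher tests (scipy 1.17.1) over the whole table, with p adjusted by Benjamini-Hochberg and called under 0.05. Both were tested on simulated data with counting error only, which cannot show their error rate where libraries differ by more than that. Alternative library sizes came from edgeR 4.0.16 (TMM) and DESeq2 1.42.0. Alternatives also covered the detection minimum, count filters, repeated rows, the added count and leaving out a library.

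Every row of the 10 precursors is named or counted. By rule, other miRNAs were to be named where they share a seed with a detected mirtron arm (none did), belong to the miR-320 and miR-484 list, or are the 3 highest other hairpins with GU and AG ends. Markers of endothelium, blood, neurons and liver came from a short list. The seed partners of undetected arms and the hairpins with annotated intron ends were named after their values were seen. The members are a set of names, but they, the lists and the tests were chosen with earlier results of these data known, among them the arm shares of mir-1226. Sequences are from RefSeq (GRCh38.p14), which matched 1245 of 1600 precursors and all 20 mirtron arms. Intron positions are from GENCODE on GRCh37, and precursors were matched to it by gene name.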

Additional observations from a re-analysis of the deposited data

How the results depend on the processing

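Over 7 summary results, 21 recomputed values stayed close to those reported (within 1 SD for levels and shares, within 1.5 times for counts and the median ratio) and 10 moved. For 4 more, the summed level and the 5p share without a library, closeness is fixed by construction with 2 libraries and shows nothing. The summed level was 428 CPM with all repeated rows in the total and 427 with the deposited RPM values, which follows from the larger denominator. With at least 1 count in both libraries 11 arms and 7 precursors were detected, and with at least 100 counts 1 arm and 1 precursor. With equal weight, the 5p share was 55.2% over the 3 hairpins deep enough for the arm test. It was 91.6% for hairpins with at least 100 counts. Without miR-877, an alternative chosen after seeing the data, the mean was 48.5%, with 40.2% in replicate 2 and 56.8% in replicate 8. Without a filter on low counts 1 mirtron arm differed between the libraries, since more names enter the adjustment. Of 42 values for single arms and hairpins, 38 kept their side of the threshold and 4 lost it, all of them for the arms of mir-1226. Leaving out a library gave 454 to 546 CPM, 6 to 7 arms, 4 to 5 precursors and a 5p share of 88.8 to 90.1%. The comparisons between libraries cannot be made with 1 library. No paired analysis was possible because there is 1 group. With 10 counts in a single library an arm share can have an interval over 50 percentage points wide, as for mir-1236 in replicate 2 (44.4 to 97.5%). The width depends on the share too. Of the 10 hairpins, 7 were too shallow for the arm test.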

Other observations

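Other hairpins of the table also carry splice-site ends. Of 11 with GU and AG at their ends, 2 were detected, mir-887 with 265 counts in replicate 2 and 366 in replicate 8 (116 ± 26.0 CPM, SD, n = 2) and mir-3620 with 41 and 38 counts (14.5 ± 0.80 CPM). The next was mir-4728, with 19 and 11 counts. In 5 of the 11 both ends were also annotated intron ends, a list made after seeing the data: mir-3620, mir-1231, mir-1233-1, mir-1233-2 and mir-3621. The hairpin of mir-887 was not among the 5. A hairpin without a GENCODE position could not enter this list, so absence from it does not show that its ends lie elsewhere. The 3p arm miR-3620-3p had 30 and 29 counts and miR-3620-5p had 11 and 9, so in this hairpin, as in mir-1229, more reads came from the 3′ end of the intron. The hairpins mir-1233-1 and mir-1233-2 carry the same counts (4 and 3) and are not separate measurements, and mir-3621 had 0 counts in both libraries.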
